A study of Mus musculus with 4 samples.

Results

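A group of 10 genes of the neuronal cytoskeleton and axon, several of them textbook targets of REST, was followed in the embryonic pancreas after deletion of *Rest*. They were taken by symbol from a table of 24391 genes, and all 10 were found: *Tubb3*, *Stmn2*, *Stmn3*, *Stmn4*, *Nefl*, *Nefm*, *Nefh*, *Elavl3*, *Dcx* and *L1cam*. RNA-seq of total RNA from mouse pancreas at E18.5, late in gestation, gave 4 libraries. The 2 control libraries carried the genotype Pdx1Cre RESTwt, and the 2 libraries called RestpKO here carried Pdx1Cre RESTLoxP/LoxP. All 4 thus carried the Cre transgene, and all were of a mixed strain with C57BL/6. The *Pdx1*-Cre transgene acts in the pancreatic epithelium, where it removes exon 4 of *Rest*, so mesenchyme, nerves, glia and vessels of the same organ keep the gene. The study's methods give 3 pancreas per genotype, and whether a library is 1 embryo or a pool is not stated, so p-values measure the spread between these libraries only.

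REST is a zinc-finger repressor that silences neuronal genes in cells that are not neurons. It binds a DNA element called RE1, made of a left and a right part with a short gap between them, and brings in enzymes that remove activating histone marks. In the pancreas, islet endocrine cells share many neuronal genes and have little REST, whereas progenitors and duct cells express it. Most of the genes followed here encode parts of the axonal skeleton: a beta tubulin that forms microtubules, stathmins and doublecortin that bind tubulin or microtubules, and the light, medium and heavy neurofilament chains. The others encode a neuronal RNA-binding protein (*Elavl3*) and an axonal adhesion molecule (*L1cam*).

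The mouse genome (mm9, the build of the authors' alignment) was searched around the annotated start of each gene for the letters TTCAGCACC and GGACAGCGC separated by 2 bases, on both strands, and the 18 letters were counted as matching or not. The best match within 30 kb of the start is shown for each gene where it holds at least 14 letters. Each is 28 bases long, written 5′ to 3′ on the strand that carries the element, with capitals for the letters that equal the searched ones. Distances are in bases from the annotated gene start, and negative values are upstream.
*Stmn2*, chr3:8508226-8508253 (+ strand), 18 of 18 letters, at -1288: ccatTTCAGCACCacGGACAGCGCttct
*Nefh*, chr11:4849397-4849424 (+ strand), 16 of 18 letters, at -1343: tcgcTTCAGCACCacGGACAGCagccgc
*Nefm*, chr14:68743777-68743804 (+ strand), 16 of 18 letters, at -887: atccggCAGCACCaaGGACAGCGCccag
*Elavl3*, chr9:21858310-21858337 (+ strand), 16 of 18 letters, at -1856: aggcTTCAGCACCacaGACAGCGgtctg
*Tubb3*, chr8:125938352-125938379 (+ strand), 15 of 18 letters, at 3041 in an intron: gtgggTCAGCACCtcGGACAGCaacccc
*Stmn3*, chr2:181048903-181048930 (- strand), 14 of 18 letters, at 289 in a coding exon: cgccgcCAGCACCatGGcCAGCaCcgta
*Dcx*, chrX:140339414-140339441 (+ strand), 17 of 18 letters, at 28427 in an intron: cacaTTCAGCACCatGGACAGCaCactg
*L1cam*, chrX:71114843-71114870 (- strand), 15 of 18 letters, at 26588 in an intron: ggccTcCAGCACCacGGACAGCagaccg

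The *Stmn2* window holds every searched letter, which 0.0268% of 22367 protein-coding genes had within 5 kb of their start. A match of at least 16 letters within 5 kb was found for 0.657% of genes, one of at least 15 for 1.91%, and one of at least 14 for 10.1%. Within 30 kb the shares were 0.599% for at least 17 letters and 7.35% for at least 15, so a distant match as in *Dcx* or *L1cam* is found in more genes than a close one with as many letters. *L1cam* holds a further window of 14 letters at 26558, next to the one shown. *Stmn4* and *Nefl* had no match above 13 letters within 30 kb, a level that 94.2% of genes reach within 30 kb. Since several of these genes were picked as known RE1 genes, finding the letters near them is a description, and a match does not show that REST binds there.

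**Figure D1:**
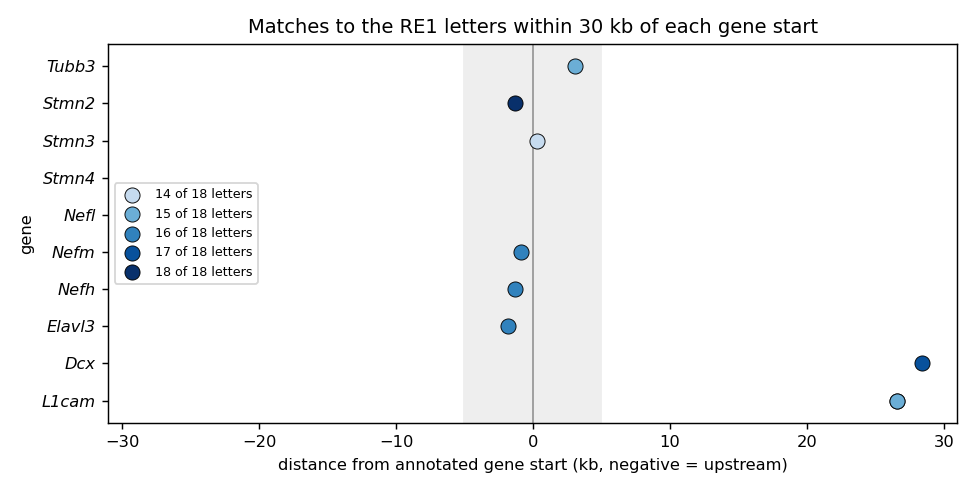
Position of each match of 14 or more of the 18 RE1 letters (colour) within 30 kb of the annotated start of the 10 genes, in kb, with the 5 kb on each side of the start shaded. Matches near the start are present in *Tubb3*, *Stmn2*, *Stmn3*, *Nefm*, *Nefh* and *Elavl3*, those of *Dcx* and *L1cam* lie more than 26 kb inside the gene, and *Stmn4* and *Nefl* have none.

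The libraries held 16936759 and 18644088 counts in controls and 20738162 and 24134100 in RestpKO, and 14550 genes passed the filter on low counts. By *Xist* and 4 Y-linked genes, control replicate 1 and RestpKO replicate 2 were female and the other two male, so each genotype had 1 library of each sex. Levels are given as CPM, the count of a gene relative to its library's total after TMM scaling. The CPM of *Rest* itself was 14.2 and 15.7 in controls, against 12.2 and 9.16 in RestpKO (log2 fold change -0.49, SE 0.23, edgeR adjusted p = 0.593). Both RestpKO libraries were below both controls, but the difference did not pass the test, and the count covers the whole gene and cells in which Cre does not act. Of pancreatic genes, 12 acinar genes summed to between 208000 and 311300 CPM, and 7 duct genes to between 936.8 and 1215 CPM.

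The question put to the 10 genes was whether their RNA differs between RestpKO and control pancreas. Among them, *Tubb3*, *Stmn2*, *Nefm*, *Nefh*, *Elavl3* and *L1cam* had higher CPM in both RestpKO libraries than in both controls, and the groups overlapped for *Stmn3*, *Stmn4*, *Nefl* and *Dcx*. None was lower in both RestpKO libraries than in both controls. Of the 14550 genes tested, 21.5% were higher in this sense and 21.2% lower. *Stmn3* and *Elavl3* failed the filter. Of the other 8, 6 had a log2 fold change above 0, as had 49.5% of all genes, and their median was 0.41, against -0.0048 over all genes. The 8 are the members that passed a filter on low counts, and their number and median are a description.

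No member passed an adjusted p of 0.05 in edgeR's quasi-likelihood test with Benjamini-Hochberg adjustment. *Tubb3*, *Stmn2* and *Nefh* had an unadjusted p under 0.05 on the higher side, where 3.26% of all genes had one, and 0 members did so on the lower side, where 5.61% had one. The same test called 0 genes higher (0%) and 4 lower (0.0275%) among all 14550, and DESeq2 called 26 of 14250 higher (0.182%), none of them a member. Leaving out 1 library moved the edgeR counts: to 50 higher and 158 lower without control replicate 1, to 27 and 73 without control replicate 2, to 59 and 455 without RestpKO replicate 1, and to 1 and 0 without RestpKO replicate 2. *Stmn2* was the 1 member called in any of these, without RestpKO replicate 1. In these bulk libraries, more cells of a type and more RNA per cell cannot be told apart.

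**Figure D2:**
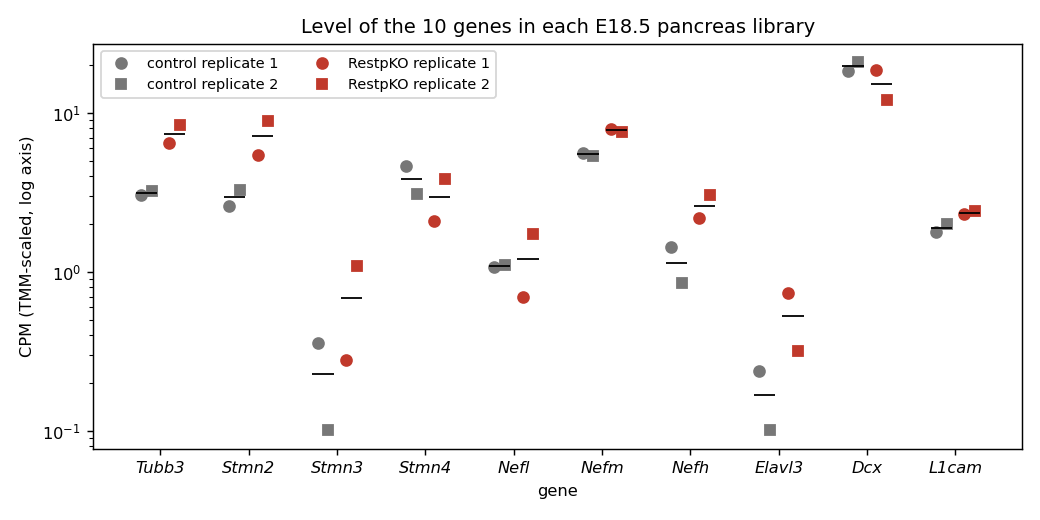
CPM (log axis) of the 10 genes in the 2 control (grey) and 2 RestpKO (red) libraries, with circles for replicate 1, squares for replicate 2 and a line at each group's mean. The RestpKO points lie above both control points for *Tubb3*, *Stmn2*, *Nefm*, *Nefh*, *Elavl3* and *L1cam*, and the groups overlap for the other 4 genes.

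*Tubb3* encodes the neuronal class III beta tubulin, a protein widely used to mark young neurons. It was counted 51 and 64 times in controls and 139 and 184 times in RestpKO, or 3.04 and 3.23 against 6.45 and 8.38 CPM. The mean was 3.13 ± 0.136 CPM in controls and 7.41 ± 1.37 CPM in RestpKO (SD, n = 2 each). The 2 controls lay close together and far below both RestpKO libraries. The log2 fold change was 1.24 (SE 0.29, 95% interval 0.57 to 1.91), with an unadjusted p of 0.0029 and an adjusted p of 0.383 in edgeR and 0.159 in DESeq2. The female pair of libraries gave a log2 ratio of 1.46 and the male pair one of 1.00, and with sex as a further term the adjusted p in edgeR was 0.0668. *Tubb3* lies on mm9 chromosome 8 from 125935324 to 125945915, and its annotated neighbour that runs through it, *Gm20388*, has no row of its own in the table.

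*Tubb3* was a minor tubulin of this organ when levels were put on a per-length scale. It was at 1.68 RPKM (CPM divided by the exon length in kb) in controls and 3.97 in RestpKO. *Tubb5*, a beta tubulin of dividing and many other cells, was at 109.0 and 120.0 RPKM, and *Tuba1a*, an alpha tubulin abundant in developing tissue, at 88.5 and 98.9. Of 14 other tubulin genes, 13 were tested, 10 with a positive and 3 with a negative log2 fold change (median 0.15). None of the 13 had an unadjusted p under 0.05. The smallest p was that of *Tubb4a*, another neuronal beta tubulin, at 4.82 and 3.43 CPM in controls and 6.35 and 6.33 in RestpKO (log2 fold change 0.62, SE 0.29, edgeR adjusted p = 0.595).

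*Stmn2* encodes SCG10, a stathmin of growing axons that binds tubulin and loosens microtubules. Its counts were 44 and 65 in controls and 117 and 197 in RestpKO, or 2.62 and 3.28 against 5.43 and 8.97 CPM. The group means were 2.95 ± 0.466 and 7.20 ± 2.51 CPM (SD, n = 2 each). Both RestpKO libraries were above both controls, and the 2 RestpKO libraries differed more from each other than the controls did. The log2 fold change was 1.28 (SE 0.34, 95% interval 0.48 to 2.08; unadjusted p = 0.0064, adjusted p = 0.424 in edgeR and 0.198 in DESeq2). The gene with the complete RE1 letters thus had a point estimate close to that of *Tubb3*. Without RestpKO replicate 1, the lower of the RestpKO values, the log2 fold change was 1.60 with an adjusted p of 0.0456, and without RestpKO replicate 2 it was 0.88 with an adjusted p of 0.464. The female pair gave a log2 ratio of 1.78 and the male pair one of 0.73. The gene spans mm9 chromosome 3 from 8509527 to 8561604.

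The other stathmins were also counted. *Stmn3* (SCLIP), a neuronal stathmin that resembles *Stmn2*, was counted 6 and 2 times in controls and 6 and 24 times in RestpKO, or 0.357 and 0.101 against 0.278 and 1.09 CPM. One RestpKO library was above both controls and the other lay between them. With no filter the log2 fold change was 1.61 with an SE of 0.92 and an adjusted p of 0.703, so a change was not detectable at this depth. *Stmn3* lies on mm9 chromosome 2 from 181041164 to 181049205.

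*Stmn4* (RB3), the stathmin without a match near its start, was at 4.64 and 3.08 CPM in controls and 2.09 and 3.83 in RestpKO. The RestpKO values lay on both sides of the lower control. Its log2 fold change was -0.38 (SE 0.40, 95% interval -1.32 to 0.56, edgeR adjusted p = 0.766), -0.88 without RestpKO replicate 2 and -0.0050 without RestpKO replicate 1. *Stmn4* lies on mm9 chromosome 14 from 66963133 to 66980517. *Stmn1*, the stathmin of dividing cells, was the most abundant of the family per length, at 5.54 RPKM in controls and 6.33 in RestpKO, and its log2 fold change was 0.19 (SE 0.22, edgeR adjusted p = 0.778). Its CPM of 11.13 and 13.21 in RestpKO lay above the 11.07 and 10.24 of the controls, the first only just. Differences between stathmins were not tested.

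Per length, *Stmn4*, *Tubb3*, *Stmn2* and *Dcx* held the top of the 10 genes in controls, at mean levels of 2.01, 1.68, 1.55 and 1.55 RPKM. These 4 did not differ beyond their spread, as *Stmn4* alone ranged from 1.61 to 2.42 RPKM. In RestpKO, *Tubb3* at 3.97 and *Stmn2* at 3.78 RPKM led, with overlapping libraries, and both libraries of each lay above both libraries of *Stmn4*, which was at 1.09 and 2.00 RPKM. *Nefm* followed in controls at 0.951 RPKM. *Nefl*, *Nefh*, *L1cam* and *Stmn3*, from 0.323 down to 0.198, were not set apart from their neighbours by the spread, and *Elavl3* was lowest in both groups, at 0.0337 and 0.106 RPKM.

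The neurofilament chains, which assemble together into the filaments that set axon calibre, had estimates whose intervals overlapped, and differences between the chains were not tested. *Nefm*, the medium chain, was counted 94 and 107 times in controls and 172 and 166 times in RestpKO, or 5.60 and 5.40 against 7.98 and 7.56 CPM. The group means were 5.50 ± 0.141 and 7.77 ± 0.293 CPM (SD, n = 2 each). It was the most even of the separated genes, with little spread in either group and female and male log2 ratios of 0.43 and 0.56. The log2 fold change of 0.50 (SE 0.24, 95% interval -0.07 to 1.07) had an adjusted p of 0.61 in edgeR and 0.926 in DESeq2. The interval reaches just below 0.

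*Nefh*, the heavy chain, which is added late as axons mature, was counted 24 and 17 times in controls and 47 and 67 times in RestpKO. This gave 1.43 and 0.857 CPM against 2.18 and 3.05 CPM, with means of 1.14 ± 0.404 and 2.62 ± 0.617 (SD, n = 2 each). All RestpKO values were above all control values. The log2 fold change was 1.20 (SE 0.44, 95% interval 0.18 to 2.22), with an unadjusted p of 0.0267 and an adjusted p of 0.504 in edgeR and 0.752 in DESeq2. Female and male pairs gave log2 ratios of 1.10 and 1.35. *Nefh* lies on mm9 chromosome 11 from 4838757 to 4848067.

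*Nefl*, the light chain, which the other chains need to form a filament, was counted 18 and 22 times in controls and 15 and 38 times in RestpKO, or 1.07 and 1.11 against 0.696 and 1.73 CPM. One RestpKO library was below both controls and the other above both. Its log2 fold change of 0.15 (SE 0.54, 95% interval -1.10 to 1.41, edgeR adjusted p = 0.929) turned to -0.64 without RestpKO replicate 2 and was 0.67 without RestpKO replicate 1. *Nefl* and *Nefm* are neighbours on mm9 chromosome 14 on opposite strands, *Nefl* from 68701920 to 68707152 and *Nefm* from 68700647 to 68742903, and an annotated *Nefm* transcript runs across *Nefl*. These positions are from a GENCODE annotation, while the authors counted on UCSC mm9 gene models. Strand was not stated for the counting, so whether *Nefl* and *Nefm* reads were told apart is not known. Per length, *Nefh* was above *Nefl* in both RestpKO libraries, at 0.546 and 0.764 against 0.206 and 0.512 RPKM, and in 1 of the 2 controls.

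*Prph* (peripherin) and *Ina* (alpha-internexin), neuronal intermediate filament genes outside the 10, were low as well. *Prph* was at 1.49 and 0.958 CPM in controls and 1.62 and 4.74 in RestpKO, with both RestpKO values above the controls but 1 of them only just (log2 fold change 1.38, SE 0.57, edgeR adjusted p = 0.543). *Ina* was at 0.179 and 0 CPM in controls and 0.510 and 0.729 in RestpKO, and its edgeR adjusted p was 0.494.

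*Elavl3* encodes HuC, a neuronal RNA-binding protein that stabilises transcripts. It was counted 4 and 2 times in controls and 16 and 7 times in RestpKO, or 0.238 and 0.101 against 0.742 and 0.319 CPM. Both RestpKO values were above both controls, at counts too low for the main test. With no filter the log2 fold change was 1.65 (SE 0.90, edgeR adjusted p = 0.69). *Elavl1*, the family member made in most cells, was at 9.70 RPKM in controls and 8.13 in RestpKO, far above *Elavl3* at 0.0337 and 0.106 RPKM. *Elavl3* lies on mm9 chromosome 9 from 21819449 to 21856467.

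*Dcx* encodes doublecortin, which stabilises microtubules in migrating young neurons. With 310 and 413 counts in controls and 401 and 264 in RestpKO, it was the most counted of the 10 genes, and its annotated exons, at 12.65 kb, are the longest of the 10. Its CPM was 18.4 and 20.8 in controls and 18.6 and 12.03 in RestpKO. One RestpKO library lay between the controls and the other was below both. The log2 fold change was -0.36 (SE 0.25, 95% interval -0.94 to 0.22, edgeR adjusted p = 0.675), ranging from -0.70 without RestpKO replicate 1 to -0.076 without RestpKO replicate 2. *Dcx* lies on mm9 chromosome X from 140290385 to 140367854. The related microtubule kinase gene *Dclk1* was at 10.8 and 13.8 CPM in controls and 9.88 and 8.20 in RestpKO (log2 fold change -0.45, edgeR adjusted p = 0.636).

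*L1cam* encodes a cell adhesion molecule that guides axons. It was counted 30 and 40 times in controls and 50 and 53 times in RestpKO, or 1.79 and 2.02 against 2.32 and 2.41 CPM. The groups were separate by a small gap, and the log2 fold change was 0.31 (SE 0.35, 95% interval -0.51 to 1.14, edgeR adjusted p = 0.776). The gene, on mm9 chromosome X from 71099117 to 71141444, overlaps *Arhgap4* and *Avpr2* in the annotation. *Arhgap4*, on the same strand, was at 8.87 and 10.5 CPM in controls and 5.10 and 8.75 in RestpKO. Whether its gene model as counted by the authors also overlaps there, and shares reads, was not examined for *L1cam*. *Chl1*, its close relative, lay the other way, at 3.45 and 3.13 CPM in controls and 1.44 and 1.09 in RestpKO (log2 fold change -1.37, SE 0.37, edgeR adjusted p = 0.424), and *Nfasc* (neurofascin), of the same family, was at 6.43 and 4.39 against 8.39 and 9.75 CPM (log2 fold change 0.75, SE 0.28, edgeR adjusted p = 0.509).

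**Figure D3:**
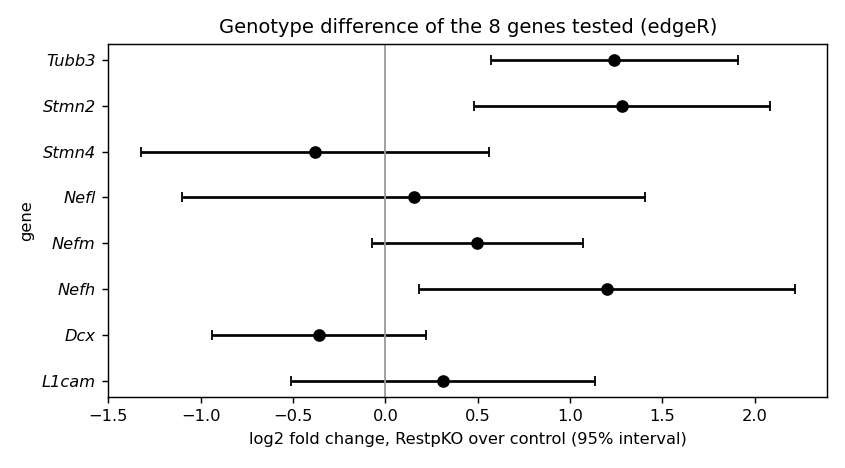
Log2 fold change of RestpKO over control for the 8 genes tested, with points for the edgeR estimate and bars for its 95% interval. The intervals of *Tubb3* (0.57 to 1.91), *Stmn2* (0.48 to 2.08) and *Nefh* (0.18 to 2.22) lie above 0 before adjustment for the number of genes tested, and those of the other 5 genes include 0.

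The 10 genes could be set beside their RE1 letters. The 5 with a match of at least 15 letters within 5 kb of the start, *Tubb3*, *Stmn2*, *Nefm*, *Nefh* and *Elavl3*, all had both RestpKO libraries above both controls. Of the 5 without one, only *L1cam* did. Of 260 other tested genes with at least 15 letters within 5 kb, 31.5% had both RestpKO libraries above both controls and 16.5% both below. Over all 12967 other tested genes placed on the genome, the shares were 21.6% and 21.4%. *Elavl3* failed the filter on low counts. *Dcx*, with 17 letters but beyond 5 kb, overlapped between the groups, so the split depends on the window. No test was made of this split, since the genes were chosen with their values known.

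The same letters were therefore counted for all other genes tested that could be placed, 12967 in number. Of 28 genes whose best match within 5 kb held 17 or 18 letters, 46.4% had both RestpKO libraries above both controls and 10.7% both below. The shares were 41.8% and 12.7% for the 55 genes with 16 letters, 26.0% and 18.6% for 177 genes with 15, and 22.3% and 19.6% for 1196 genes with 14. For the 11511 genes with 13 or fewer letters they were 21.3% and 21.7%. The share on the higher side was thus larger in each class with more letters, and the 2 classes with most letters are small.

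The median log2 fold change was 0.335 with 17 or 18 letters, 0.327 with 16, 0.0884 with 15, 0.023 with 14 and -0.0096 with 13 or fewer. Over the 83 genes with 16 or more letters, the median deviation from the mean of the 4 libraries was -0.0654 and -0.157 in the controls and 0.0818 and 0.139 in RestpKO. The 2 genotypes did not overlap. The median of these 83 genes was 0.327. It was 0.212 without control replicate 2 (82 of the genes) and 0.212 without RestpKO replicate 2 (80 of the genes). Over the 64 that are in none of the gene lists used here it was 0.271. These are shares and medians over genes, which are not replicates, in 2 libraries a group.

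**Figure D4:**
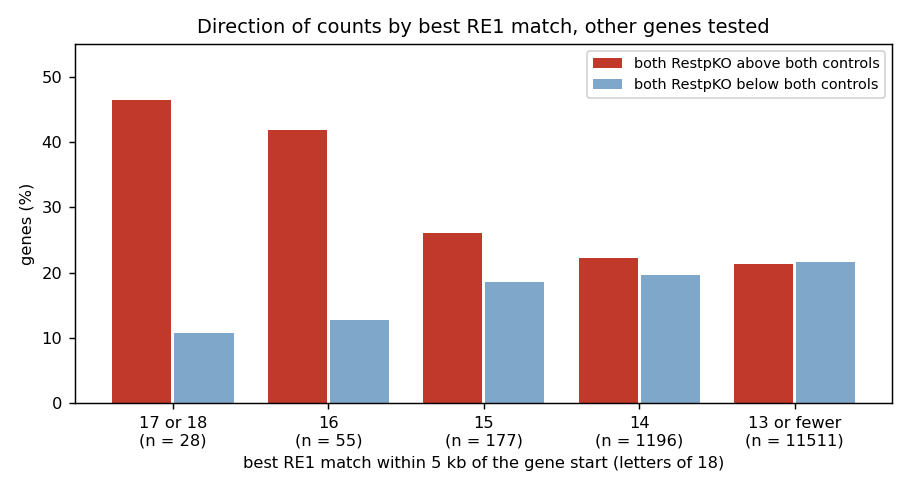
Share (%) of other tested genes with both RestpKO libraries above both controls (red) or below both (blue), by the letters of their best RE1 match within 5 kb of the start, with the number of genes in each class. The red share goes from 21.3% with 13 or fewer letters to 46.4% with 17 or 18, and the blue share from 21.7% to 10.7%.

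Exon length moved with the genotype difference across genes. The median log2 fold change was 0.16 for 451 genes of up to 1 kb, 0.113 for 4298 genes of 1 to 3 kb, -0.0193 for 5367 of 3 to 6 kb, -0.153 for 2220 of 6 to 10 kb and -0.273 for 639 above 10 kb. *Dcx*, in the longest class, was near that class's median, and *Tubb3* and *Stmn2*, at 1.87 and 1.90 kb, were well above the median of theirs. *Stmn4*, at 1.92 kb, lay below it. The genes with 16 or more RE1 letters had a median exon length of 3.54 kb, against 3.79 kb for those with 13 or fewer. Within 1 to 6 kb the medians were 0.332 for 61 genes and 0.0343 for 8558 genes.

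Other genes of the neuronal cytoskeleton did not lie to one side. Of 23 in a list of microtubule-associated proteins, motors, ankyrins and collapsin response mediators, 22 were tested, 10 with a positive and 12 with a negative log2 fold change (median -0.0798). With an unadjusted p under 0.05, 2 were higher and 4 lower, and none passed the adjusted threshold in edgeR or DESeq2. *Kif5a*, a neuronal kinesin motor, was at 1.07 and 1.16 CPM in controls and 2.18 and 3.01 in RestpKO (log2 fold change 1.21, SE 0.40, edgeR adjusted p = 0.48). *Map1a*, a microtubule-associated protein of mature neurons, was at 29.6 and 25.8 against 15.4 and 20.6 CPM (log2 fold change -0.62, SE 0.21, edgeR adjusted p = 0.494). *Tppp*, a tubulin polymerisation factor of glia, was at 24.7 and 18.4 against 5.52 and 11.8 CPM (log2 fold change -1.31, SE 0.36, edgeR adjusted p = 0.424 and DESeq2 adjusted p = 0.0515). Of 12 family relatives of the 10 genes, 8 were above 0 and 4 below, with a median of 0.188.

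Other textbook RE1 genes, of vesicles, synapses and channels, were more often above than below 0. Of 39 in the table, 37 were tested, 25 were above 0 and 12 below, and the median was 0.386, close to the 0.41 of the 8 genes. Both RestpKO libraries were above both controls for 16 of the 37 and below both for 8, against 21.5% and 21.2% of all genes. With an unadjusted p under 0.05 in edgeR, 9 were higher and 3 lower, against 3.26% and 5.61% of all genes. DESeq2 called 4 higher, against 0.182% of all genes. These 4 were *Chga*, *Chgb*, *Disp2* and *Cplx2*, and none passed in edgeR. *Chga*, the granule protein chromogranin A of endocrine cells, had an estimate close to those of *Tubb3* and *Stmn2* (log2 fold change 1.30, SE 0.21, edgeR adjusted p = 0.349). *Gria2*, a glutamate receptor gene also known for its RE1, lay lower in both RestpKO libraries, at 10.1 and 9.83 against 3.94 and 5.19 CPM (log2 fold change -1.13, SE 0.26, edgeR adjusted p = 0.383 and DESeq2 adjusted p = 0.143).

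Whole pancreas also holds islets, nerves and their glia, in which these 10 genes can be active. The 20 pancreatic endocrine genes were all tested and all above 0, with a median of 0.553, and 12 of them had both RestpKO libraries above both controls. Their summed level was 3180 and 2140 CPM in controls and 4508 and 6540 CPM in RestpKO. DESeq2 called 5 of them higher (*Ins1*, *Ins2*, *Pcsk2*, *Ghrl* and *Iapp*) and edgeR 0, with 8 at an unadjusted p under 0.05.

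Of 17 peripheral neuron genes, 10 were tested, with 7 above and 3 below 0, a median of 0.295, and 4 separated on the higher side. Their summed level was 250.3 and 244.8 CPM in controls and 184.2 and 297.4 CPM in RestpKO, most of it from *Gal*, and did not separate the genotypes. *Chat*, the enzyme that makes acetylcholine, was at 0 in all 4 libraries, and *Dbh*, of noradrenaline synthesis, had 1 count in RestpKO replicate 2 and none elsewhere. *Phox2a*, a transcription factor of noradrenergic neurons, had 1 and 3 counts in controls and 6 and 4 in RestpKO. *Th* was at 1.49 and 0.908 CPM in controls and 1.67 and 2.64 in RestpKO. *Uchl1*, a neuronal ubiquitin hydrolase, was at 4.11 and 4.74 against 5.10 and 9.66 CPM (edgeR adjusted p = 0.606), and *Hand2*, a transcription factor of sympathetic neurons, at 9.23 and 8.88 against 11.4 and 10.7 CPM (edgeR adjusted p = 0.692). *Th*, *Prph*, *Uchl1* and *Hand2* are the 4 separated genes, and none of the 10 tested passed the adjusted threshold in edgeR or DESeq2.

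Schwann cell and glial genes were separated more clearly. All 10 tested of 12 were above 0, with a median of 0.682, and 8 of them had both RestpKO libraries above both controls. *Foxd3* and *Gfap* failed the filter on low counts. Their mean CPM was lower in RestpKO, at 0.115 against 0.131 for *Foxd3* and 0.139 against 0.241 for *Gfap*. *Cdh19*, 1 of the 8, had 3 and 7 counts in controls and 13 and 15 in RestpKO, and passed the filter by its RestpKO counts. That all tested genes were above 0 thus depends in part on the filter. The summed level of the 12 was 80.7 and 85.5 CPM in controls and 103.1 and 108.3 CPM in RestpKO, and none was at 0. Most of this sum came from *Mbp* and *Erbb3*, whose log2 fold changes were small, at 0.22 and 0.21. *Sox10*, which defines Schwann cells, was at 2.02 and 1.61 against 4.27 and 2.41 CPM (log2 fold change 0.88, SE 0.41, edgeR adjusted p = 0.589), and *S100b* at 5.12 and 3.53 against 7.42 and 9.25 CPM (log2 fold change 0.95, SE 0.30, edgeR adjusted p = 0.463). The part of endocrine, neuronal and glial RNA in the values of the 10 genes was not tested.

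Of the other marker lists, 8 mesenchyme genes (1 above 0, 7 below, median log2 fold change -0.431) summed to 8675 and 7748 CPM in controls and 4592 and 7205 CPM in RestpKO. The 12 acinar genes had a median of 0.274 with 11 above 0, and the 7 duct genes one of -0.0083. Of 7 red cell genes, the 4 globin genes were listed at 0 in every library, so their sum (30.4 and 122.9 CPM in controls, 20.4 and 20.4 in RestpKO) does not measure red cell RNA. The other 3 were tested, all had a negative log2 fold change with an unadjusted p under 0.05 (median -2.88), and none passed the adjusted threshold in edgeR or DESeq2. Their highest values were in control replicate 2. None of the mesenchyme genes passed the adjusted threshold in edgeR or DESeq2. *Col1a1*, *Col1a2*, *Dcn*, *Lum* and *Pdgfra* were lower in both RestpKO libraries than in both controls, and *Col3a1*, *Pdgfrb* and *Vim* overlapped. The part of mesenchyme and red cells in the values of the 10 genes was not tested. The mean log2 deviation of a list from its mean over the 4 libraries separated the genotypes on both sides. Both RestpKO libraries were higher for the family relatives (-0.0228 and -0.114 in controls, 0.0046 and 0.132 in RestpKO). The acinar genes were also higher (0.0215 and -0.196 in controls, 0.0358 and 0.139 in RestpKO), as were 4 of the 7 lists in the plot of deviations by library. Both RestpKO libraries were lower for the mesenchyme genes (0.252 and 0.146 in controls, -0.401 and 0.0035 in RestpKO). The 3 tested red cell genes were lower too (0.0878 and 2.06 in controls, -0.67 and -1.48 in RestpKO). The duct genes overlapped.

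**Figure D5:**
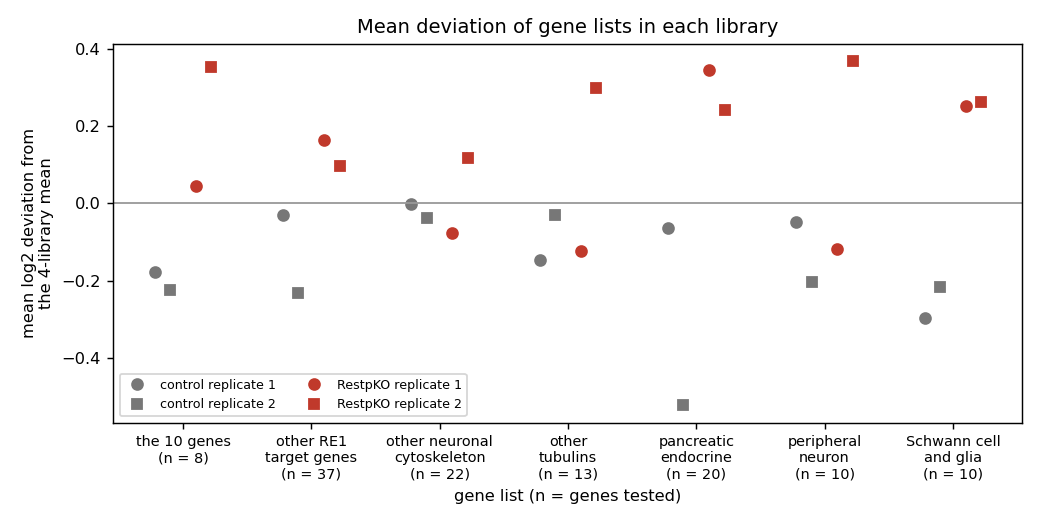
Mean deviation (log2 CPM) of the tested genes of each list from their mean over the 4 libraries, with grey for control, red for RestpKO, circles for replicate 1 and squares for replicate 2. Both RestpKO points lie above both control points for the 8 tested of the 10 genes, the other RE1 target genes, the endocrine genes and the glial genes, and the groups overlap for the other neuronal cytoskeleton genes, the other tubulins and the peripheral neuron genes.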

How the data were processed

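RNA-seq measured 24391 genes in 4 libraries of E18.5 mouse pancreas, 2 per genotype, grouped by the genotype in the labels. The deposited values are raw counts per gene, made by the authors with STAR alignment to mm9 and featureCounts (1.5 in the submitters' processing notes), and the authors tested genotype with DESeq2. The strand setting, and whether reads or pairs were counted, are not given in the sources used here.

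From the counts, edgeR 4.0.16 (R 4.3.3) was run with filterByExpr, TMM scaling and a quasi-likelihood test of genotype over 14550 genes, with Benjamini-Hochberg adjustment at 0.05. The test was checked on simulated counts. DESeq2 1.42.0, limma-voom (limma 3.58.1), other scalings and filters, a replicate block, a sex term and the omission of each library were alternatives. RPKM used the exon length of a GENCODE mm9 annotation, from which positions and the gene starts for the RE1 letters were also read. The authors counted on UCSC mm9 gene models, so the lengths counted can differ from these. Stretches of 100 bases were compared with other coding transcripts, and none of the 10 genes shared any (0%).

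The 10 genes and all lists (family relatives, other tubulins, other neuronal cytoskeleton, other RE1 target genes and markers of endocrine, neuron, glia, acinar, duct, mesenchyme and red cells) were chosen with earlier results of these data known, and the 30 kb window with the study's REST peaks known. Named genes were the 10 genes, *Rest*, up to 5 genes of smallest p per list, and relatives and tubulins in comparisons per length. After their values were seen, the neuronal markers at or near 0, *Gal*, *Mbp*, *Erbb3* and *Arhgap4* were added. So were the mesenchyme genes outside the 5, and the glial genes *Foxd3* and *Gfap*. The replicate numbers were not used as pairs in the main test. The deviations of replicate 1 from 2 correlated at 0.0232 between genotypes over 13660 genes. Replicate 1 was female in controls and male in RestpKO, so this value cannot show whether the libraries were paired. The value of 1 marker gene is not reported here.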

Additional observations from a re-analysis of the deposited data

Results flagged for a closer look

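*Nefl*, the neurofilament light chain, moved in opposite directions in the 2 sexes. The log2 ratio of RestpKO over control was 0.69 between the female libraries and -0.67 between the male libraries. Each ratio compares 1 library with 1 library, at 15 to 38 counts, and the difference between the sexes was not tested.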

How the results depend on the processing

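The sign of 7 of the 8 tested genes was kept under all 11 alternatives, though *Stmn4* came to -0.0050 without RestpKO replicate 1 and -0.88 without RestpKO replicate 2. *Nefl* turned to -0.6404 without RestpKO replicate 2 and reached 0.6662 without RestpKO replicate 1. *Tubb3* ranged from 1.04 to 1.42 (edgeR, DESeq2 or limma adjusted p from 0.0517 to 0.428), *Stmn2* from 0.88 to 1.60 (adjusted p from 0.0456 to 0.5) and *Nefh* from 0.87 to 1.60, with an unadjusted p under 0.05 in 8 of 11. The count of the 10 genes called higher was 0, and from 0 to 1 when 1 library was left out. Over all genes, the 0 called higher and 4 called lower became 26 and 76 with DESeq2 and 60 and 187 with sex as a further term, and ranged from 1 to 59 and from 0 to 455 when 1 library was left out; the cause was not tested. With 1 library left out, the lone library of its group is assumed to vary like the others. With the replicate number as a block, edgeR called 0 genes higher and 4 lower and none of the 10, so the counts of calls did not change. Whether the 4 were the same genes was not examined. The median of the genes with 16 or more RE1 letters was added after the data were seen. It was 0.212 to 0.269 without control replicate 2 or either RestpKO library, and from 0.317 to 0.348 under the other settings. Each of these medians covers only genes that passed the main filter, also in the setting with no filter. At 1 CPM in 2 libraries it covers 65 of the 83. The settings therefore cannot show whether the filter on low counts affects this median. Counts under 30 in *Stmn3* and *Elavl3* limit what could be detected.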
